A study of Mus musculus with 11 samples.

Results

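The Grainyhead-like transcription factors of the mouse are the products of 3 genes, Grhl1, Grhl2 and Grhl3, which were taken by symbol from the 24421 genes in the count tables. These factors bind DNA through a domain related to that of the CP2 proteins, and the fly gene that gave the family its name is needed for the cuticle and for its repair after injury. In mammals they act in surface epithelia, where they control genes of cell adhesion and of the skin barrier. GRHL1 is known for desmosomal cadherins, GRHL2 for the epithelial state and for E-cadherin, and GRHL3 for barrier formation, eyelid closure and wound closure.

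The libraries came from epidermal keratinocytes of C57BL/6 mice (C57BL/6J in the methods of the study), sorted for CD49f after cells with CD45, CD31 or TER119 had been excluded. Wounded samples were the margins of punch wounds in back skin 3 days after wounding, and unwounded samples were skin away from the wounds. The 2 genotypes were WT and GRHL3 KO, littermates 8 weeks old of both sexes. According to the methods of the study both carried Krt14-Cre, and the KO mice also had 2 floxed Grhl3 alleles (Grhl3-cKO), so that deletion is limited to cells in which the Krt14 promoter drives Cre. RNA was sequenced in 2 libraries of WT unwounded, 2 of WT wounded, 1 of KO unwounded and 2 of KO wounded keratinocytes, with between 13497283 and 16807451 counts on genes per library. Chromatin accessibility was measured by ATAC-seq, in which a transposase cuts open DNA, in 1 library for each of the 4 conditions, each pooled from 2 mice. Keratinocytes were isolated with an n of 2 per genotype, but how many animals went into each RNA library is not stated, nor whether replicates are separate animals, so p-values measure the spread between these samples alone. With 2 libraries against 2, an exact test of ranks cannot go below a p of 0.333.

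The sorted cells carried the RNA of keratinocytes. The 6 basal keratinocyte markers, among them Itga6, which encodes CD49f, summed to between 30890 and 44746 CPM (counts scaled to the size of the library), led by the basal keratin Krt14. The mean CPM was 15549 for Krt14, 13555 for its partner Krt5 and 5499 for the hemidesmosome collagen Col17a1. Ptprc, which encodes CD45, had 0 counts in 5 of the 7 libraries, and the 6 leukocyte markers together reached at most 6.94 CPM. The 7 endothelial markers, of which Vwf had the highest mean at 3.31 CPM, were low but higher in the wounded libraries. They summed to 4.13 and 5.65 CPM in WT unwounded, 34.6 and 20.6 CPM in WT wounded, 1.70 CPM in KO unwounded and 13.7 and 19.3 CPM in KO wounded libraries. RNA was measured in bulk, so fewer cells of a type and less RNA per cell cannot be told apart.

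The KO unwounded library stood apart. It had 14854 counts of Xist, the RNA of the inactive X chromosome, and 0 counts over 4 Y-linked genes. Elsewhere, in 6 libraries, Xist had between 3 and 32 counts and the Y-linked genes had 2580 to 3589. The sex of the animals therefore cannot be told apart from the KO unwounded condition. For the 3 Grhl genes, where leaving this library out turns a direction, the value without it is given. The medians of the gene lists were not taken without it.

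Grhl3, the gene targeted in the KO mice, kept its counts in the libraries labelled KO. Its level was 122 and 83.2 CPM in the WT unwounded libraries and 110 and 90.0 CPM in the WT wounded libraries. It was 76.2 CPM in the library labelled KO unwounded and 116 and 104 CPM in those labelled KO wounded. The lowest value was thus that of the unwounded KO library, while both wounded KO libraries lay within the range of the 4 WT libraries. Counts were deposited per gene, so reads from the exons that Cre removes cannot be told apart from reads of the other exons, and the genotype labels could not be checked at this level. The study tested deletion by qPCR between the loxP sites and by GRHL3 staining, which are not analysed here. All directions between genotypes below rest on these labels.

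Grhl1 had the highest mean count of the family, though Grhl2 exceeded it in WT wounded replicate 2. Its level was 182 and 163 CPM in WT unwounded, 189 and 143 CPM in WT wounded, 207 CPM in KO unwounded and 168 and 221 CPM in KO wounded libraries. The highest value came from a KO wounded library and the lowest from a WT wounded one, and the ranges of the WT and KO libraries overlapped. Grhl2 was the steadiest of the 3 genes. Its level was 160 and 159 CPM in WT unwounded, 149 and 155 CPM in WT wounded, 182 CPM in KO unwounded and 155 and 157 CPM in KO wounded libraries. Apart from the KO unwounded library, its values stayed between 149 and 160 CPM.

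**Figure D1:**
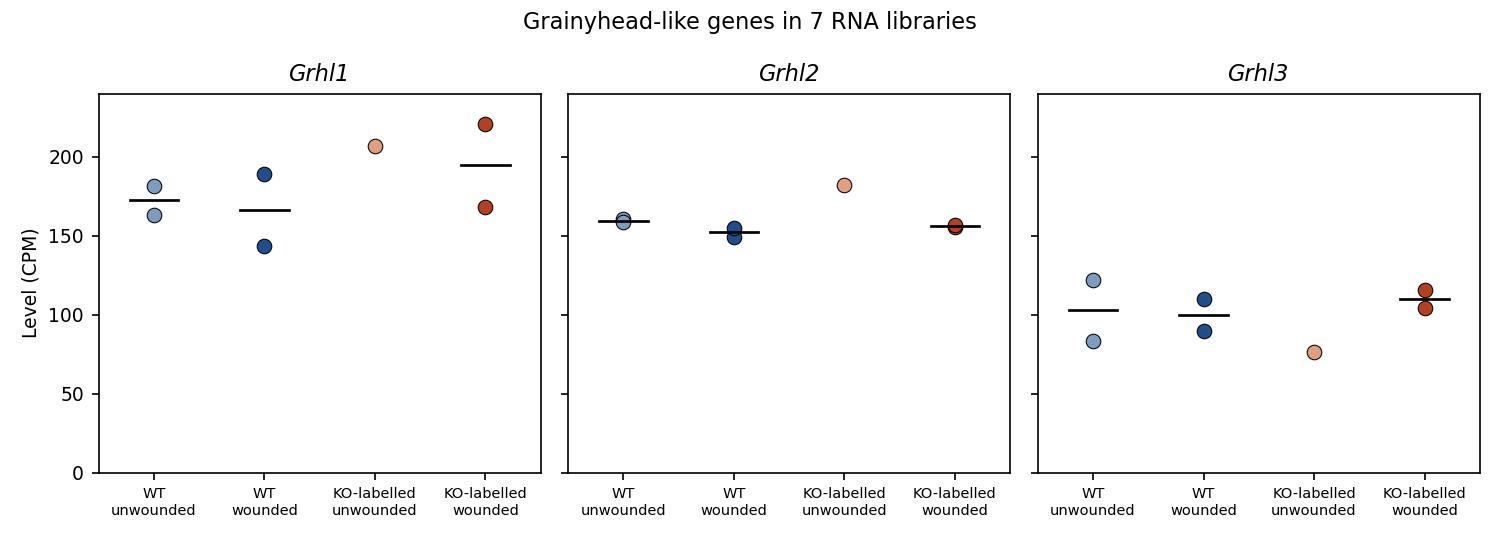
Level of Grhl1, Grhl2 and Grhl3 in CPM (vertical axis) in each of 7 RNA libraries, by condition (horizontal axis), with a point per library and a bar at the mean of 2. For Grhl2 the KO unwounded library, at 182 CPM, lies above the other 6.

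All 3 genes were well above the middle of the 14045 genes that passed the filter on low counts (filterByExpr of edgeR). Of those genes, 92.9% had a lower mean CPM than Grhl1, 91.7% a lower one than Grhl2 and 85.5% a lower one than Grhl3. The standard deviation of log2 CPM over the 7 libraries was 0.21 for Grhl1, 0.10 for Grhl2 and 0.26 for Grhl3, where the median gene had 0.35. For Grhl2, 3.03% of the genes had a smaller standard deviation, against 25.0% for Grhl1 and 35.7% for Grhl3. The highest library exceeded the lowest by a ratio of 1.54 for Grhl1, 1.22 for Grhl2 and 1.60 for Grhl3.

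Levels of different genes were compared per kilobase of the annotated exons, which span 3504 bases for Grhl1, 5335 bases for Grhl2 and 2789 bases for Grhl3. On this scale Grhl1 was the most abundant in each of the 7 libraries, at 51.9 ± 7.56 CPM per kb (SD, n = 7). Grhl3 followed at 36.0 ± 6.23 CPM per kb and Grhl2 at 29.9 ± 1.96 CPM per kb. Grhl3 exceeded Grhl2 in 6 libraries, and Grhl2 exceeded Grhl3 in the KO unwounded library, with 34.1 against 27.3 CPM per kb. The ranges of Grhl2 and Grhl3 overlap, from 28.0 to 34.1 and from 27.3 to 43.8 CPM per kb. Within a library the ratio of Grhl2 to Grhl3 had a median of 0.785. It ran from 0.686 to 1.25, the highest in the KO unwounded library, and the difference between these 2 genes was not tested. Per kilobase of coding sequence their order turned, with 85.1 CPM per kb for Grhl2 and 55.4 CPM per kb for Grhl3, since the exons of Grhl2 hold more bases outside the coding sequence. As a share of the summed CPM per kb of the family, Grhl1 made up 40.0% to 49.0%, Grhl3 22.7% to 35.0% and Grhl2 22.6% to 28.4% of a library.

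Wounded and unwounded WT keratinocytes had similar levels of the family, and none of the 3 genes passed the test. For Grhl1 unwounded WT libraries averaged 173 ± 12.9 CPM and wounded ones 166 ± 32.3 CPM (SD, n = 2 each), with a log2 fold change of -0.03 (SE 0.18). Grhl2 had a mean of 159 ± 1.24 CPM unwounded and 152 ± 4.14 CPM wounded, with a log2 fold change of -0.04 (SE 0.16). Grhl3 had a mean of 103 ± 27.6 CPM unwounded and 100 ± 14.1 CPM wounded, with a log2 fold change of -0.02 (SE 0.21). The adjusted p was 1 for each gene by the quasi-likelihood test of edgeR with Benjamini-Hochberg adjustment. The 95% intervals of the fold ran from 0.747 to 1.28 for Grhl1, from 0.767 to 1.23 for Grhl2 and from 0.730 to 1.34 for Grhl3. Across all genes 0.0285% passed an adjusted p of 0.05 and 4.84% had an unadjusted P under 0.05, and 0 of the 3 family members met either rule with edgeR or with DESeq2. By CPM, both wounded libraries had less Grhl2 than both unwounded ones. Groups whose CPM does not overlap were found for 33.5% of all genes in this comparison. After the TMM scaling of library sizes that the tests use, the Grhl2 values of the groups overlap. The sign for Grhl3 depends on single libraries, with a log2 fold change of 0.30 without WT unwounded replicate 1 and 0.10 without WT wounded replicate 2. For Grhl1 the same 2 omissions gave 0.06 and 0.14.

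Wounded keratinocytes labelled KO were compared with wounded WT cells. All 3 genes had a higher mean in the KO wounded libraries and none passed the test. Grhl1 had a mean of 195 ± 37.0 CPM (SD, n = 2) in KO wounded libraries, a log2 fold change of 0.25 (SE 0.18). The mean of Grhl2 was 156 ± 1.07 CPM, a log2 fold change of 0.06 (SE 0.16). Grhl3 reached 110 ± 8.15 CPM, a log2 fold change of 0.17 (SE 0.21). Leaving out 1 library gave 0.08 to 0.45 for Grhl1, 0.03 to 0.10 for Grhl2 and 0.04 to 0.31 for Grhl3. The adjusted p was again 1 for each gene with edgeR. For Grhl3 the 95% interval of the fold ran from 0.827 to 1.52, so a fold below 0.827 lies outside it. In this comparison 0% of all genes passed the adjusted threshold and 4.04% had an unadjusted P under 0.05, against 0 of the 3 family members by both rules and both tools. The CPM of Grhl2 did not overlap between the groups, as for 30.9% of all genes, but after TMM scaling its values overlap.

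Wounding was then tested over both genotypes, with 4 wounded and 3 unwounded libraries and genotype as a term of the model. The log2 fold change was -0.06 (SE 0.14) for Grhl1, -0.12 (SE 0.12) for Grhl2 and 0.19 (SE 0.18) for Grhl3. Adjusted p-values by edgeR were 0.985, 0.945 and 0.929 in that order. Of all genes 0.0356% passed the adjusted threshold and 6.61% had an unadjusted P under 0.05, and the family had 0 of 3 under each rule with edgeR and with DESeq2. By CPM, all 3 unwounded libraries had more Grhl2 than the 4 wounded ones, at 159 to 182 CPM against 149 to 157 CPM. Such a separation of CPM was found for 6.44% of all genes in this comparison. For Grhl2 it is lost after TMM scaling, with factors of 1.03 for WT unwounded replicate 2 and 0.961 for KO wounded replicate 1. Without the KO unwounded library the log2 fold change was -0.04 for Grhl2 and -0.01 for Grhl3, so the sign for Grhl3 rests on that library. The log2 fold change of Grhl3 was 0.41 without WT unwounded replicate 1.

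Genotype was tested in the same model, with 3 libraries labelled KO against 4 WT libraries. Grhl1 had the largest difference of the family, a log2 fold change of 0.28 (SE 0.14), with means of 199 ± 27.1 CPM (SD, n = 3) and 169 ± 20.4 CPM (SD, n = 4). Its 95% interval of the fold ran from 0.982 to 1.49, its unadjusted P was 0.0705 and its adjusted p was 0.645 with edgeR, and a higher value than the WT mean was seen in 2 of the 3 KO libraries. The log2 fold change was 0.13 (SE 0.12) for Grhl2 and -0.04 (SE 0.18) for Grhl3, with adjusted p-values of 0.845 and 0.980. Across all genes 0% passed the adjusted threshold, 8.26% had an unadjusted P under 0.05 and 7.99% did not overlap between the groups. The family had 0 of 3 under each of these rules with edgeR, and 0 of 3 by adjusted or unadjusted P with DESeq2. Without the KO unwounded library the log2 fold change was 0.17 for Grhl3, and without WT unwounded replicate 1 it was 0.09.

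**Figure D2:**
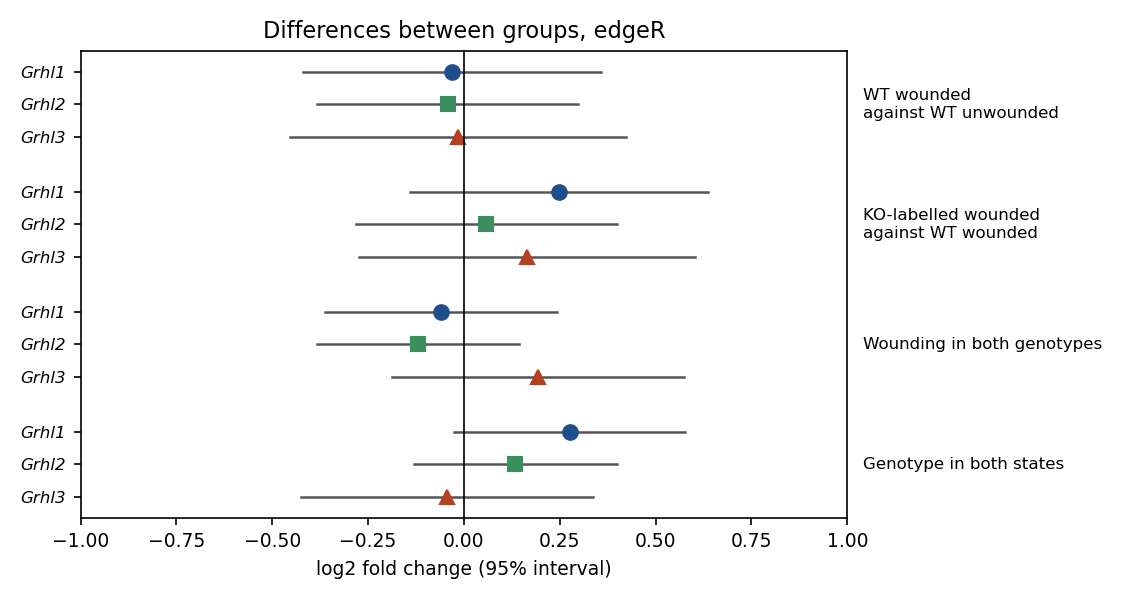
Log2 fold change (horizontal axis) of Grhl1 (circles), Grhl2 (squares) and Grhl3 (triangles) in 4 comparisons fitted with edgeR. Lines are 95% intervals, and each of the 12 intervals includes 0.

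Wounding in KO keratinocytes was described and not tested, since the unwounded condition has 1 library and so no spread of its own. The 2 wounded KO libraries differed from it by -0.27 and 0.04 log2 CPM for Grhl1, by -0.20 and -0.26 for Grhl2 and by 0.63 and 0.40 for Grhl3. None of these differences reached 2-fold, a rule that 9.58% of all genes met in both wounded libraries in 1 direction. Grhl3 was higher and Grhl2 lower in both wounded KO libraries, in a comparison where sex differs as well. The share of all genes with both wounded libraries on the same side of the unwounded one was not counted.

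The patterns of the 3 genes across libraries were unlike each other. Over the 7 libraries the Pearson correlation of log2 CPM was 0.39 between Grhl1 and Grhl2, 0.08 between Grhl1 and Grhl3 and -0.44 between Grhl2 and Grhl3. Without the KO unwounded library these became -0.16, 0.50 and 0.35, so each of them depends on that library. Among 11079 genes with a mean log2 CPM of at least 1, the 3 most like Grhl1 were Gmpr2 (r = 0.98), the deacetylase gene Hdac11 (r = 0.97) and the thyroid hormone receptor gene Thrb (r = 0.96). Their r was 0.98, 0.96 and 0.96 without the KO unwounded library. All these genes were picked for a high r over 7 libraries, and the 6 that remain are among those, so a high r there follows in part from the choice. The genes most like Grhl3 were the phosphatase gene Ptprj (r = 0.97), Tmem219 (r = 0.97) and Ctu2 (r = 0.95), with 0.97, 0.96 and 0.92 when that library was omitted. Those most like Grhl2 were Il22ra2, which encodes a soluble receptor of interleukin 22 (r = 0.98), Bace2 (r = 0.97) and Btf3l4 (r = 0.97). Their r was 0.82, 0.82 and 0.79 without the KO unwounded library, in which Il22ra2 stood at 82.8 CPM against 12.5 to 22.0 CPM in the others. Of the 11079 genes, 53 had an r above 0.9 with Grhl1, 86 with Grhl2 and 21 with Grhl3.

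The other branch of the family, the CP2 relatives Ubp1, Tfcp2 and Tfcp2l1, had lower mean CPM than each Grhl gene. These are CPM and not values per kilobase. Mean levels over the 7 libraries were 73.1 CPM for Ubp1, 6.06 CPM for Tfcp2 and 2.66 CPM for Tfcp2l1. Ubp1 ranged from 63.6 to 81.1 CPM and exceeded Grhl3 in the KO unwounded library, at 80.5 against 76.2 CPM, and Tfcp2 was highest in the KO unwounded library at 10.8 CPM. None of the 3 passed the adjusted threshold or had an unadjusted P under 0.05 in any of the 4 tests with edgeR or DESeq2, which gave no adjusted p to 2 of them by genotype.

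Of 28 genes known as bound or regulated by GRHL factors in epithelia, 26 passed the filter on low counts. The study names Cdh1 and Arhgef19 of them for these samples too. In WT keratinocytes their median log2 fold change on wounding was -0.11, against 0.00 for all genes, and 12 of 26 were above 0. With edgeR 0 passed the adjusted threshold, 1 was higher and 1 lower at an unadjusted P under 0.05, against 4.84% of all genes, and DESeq2 gave 0 and 2. Zfp750, which encodes a factor of epidermal differentiation, was higher in wounded WT libraries, at 348 ± 16.5 against 264 ± 7.17 CPM (SD, n = 2 each), with an adjusted p of 0.843 by edgeR. Tgm5, a transglutaminase gene of the cornified envelope, was lower, at 44.7 ± 0.871 against 83.8 ± 21.4 CPM, with an adjusted p of 0.449 by edgeR. Between KO and WT wounded libraries the median was 0.07 against -0.01 for all genes, with 15 of 26 above 0. Here again 0 passed with edgeR and 0 with DESeq2, and at an unadjusted P under 0.05 edgeR had 1 gene in each direction, against 4.04% of all genes, and DESeq2 2 genes. The desmosomal cadherin gene Dsg1a was higher in KO wounded libraries, at 574 ± 43.0 against 402 ± 57.6 CPM, and the adhesion gene Epcam was lower, at 220 ± 46.6 against 333 ± 94.8 CPM (SD, n = 2 each). Both had an adjusted p of 1 with edgeR.

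Over both genotypes the median log2 fold change of the 26 targets on wounding was -0.10, with 0 past the adjusted threshold by edgeR and DESeq2. At an unadjusted P under 0.05 edgeR had 2 targets higher and 1 lower, against 6.61% of all genes, and DESeq2 had 2 in all. For genotype the median was 0.06, with 0 past the adjusted threshold by edgeR and 2 higher and 1 lower at an unadjusted P under 0.05, against 8.26% of all genes. DESeq2 called 1 target by genotype, Dsg1a, where it called 90 genes in all. It had 4 targets at an unadjusted P under 0.05 and gave no adjusted p to 2. The share of all genes at this rule with DESeq2 was not counted, and the 8.26% is that of edgeR. Dsg1a stood at 635 ± 109 CPM in the 3 KO libraries and 426 ± 44.5 CPM in the 4 WT libraries (SD), with a log2 fold change of 0.64 (SE 0.13) and an adjusted p of 0.109 by edgeR. Its highest value, 755 CPM, was that of the KO unwounded library. Whether the DESeq2 call holds without that library was not tested. Dsg1a is also in the list of 6 suprabasal keratinocyte markers, all of which had a log2 fold change above 0 by genotype, with a median of 0.41. Of these 0 passed the adjusted threshold and 3 had an unadjusted P under 0.05 with edgeR, and DESeq2 called 2, Dsg1a and Krt10. Between the wounded and the unwounded KO libraries 2 of the 26 targets met the 2-fold rule, both higher when wounded, against 9.58% of all genes.

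The most abundant targets were Dsp, Cdh1 and Dsg1a. The desmosomal plaque gene Dsp ranged from 11462 to 13418 CPM over the 7 libraries, and Dsg1a from 361 to 755 CPM. Cdh1, which encodes E-cadherin, stood at 1346 and 1037 CPM in WT unwounded, 1476 and 1123 CPM in WT wounded, 1219 CPM in KO unwounded and 1063 and 1148 CPM in KO wounded libraries. Its groups overlapped in WT wounded against unwounded and in KO wounded against WT wounded.

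Among 18 partners and upstream factors, such as the co-factor Lmo4, histone methyltransferase subunits and genes of planar polarity, 0 passed the adjusted threshold in any of the 4 tests with edgeR. At an unadjusted P under 0.05 edgeR had 0 in WT wounding, 1 higher in KO wounded against WT wounded, 2 lower in wounding over both genotypes and 1 higher by genotype. The shares of all genes at this rule with edgeR were 4.84%, 4.04%, 6.61% and 8.26% in that order. By genotype DESeq2 called 1 of the 18, Klf4, where it called 90 genes in all. It had 0, 1, 2 and 1 of the 18 at an unadjusted P under 0.05 in the same order of tests. The most abundant were the epidermal factors Klf4 and Trp63 and the methyltransferase gene Kmt2d, with means of 1449, 1028 and 822 CPM. Klf4 had 1476 ± 295 CPM in KO wounded and 1157 ± 113 CPM in WT wounded libraries (SD, n = 2 each), with an adjusted p of 1 by edgeR. Its highest value, 2322 CPM, was that of the KO unwounded library, and whether the DESeq2 call holds without that library was not tested. Between KO and WT wounded libraries DESeq2 called 0 of the 18. Median log2 fold changes of the 18 genes lay between -0.04 and 0.05 in the 4 tests. In KO cells 0 of them met the 2-fold rule, against 9.58% of all genes.

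The 6 EMT factors, mesenchymal regulators known to oppose GRHL2, were led by Snai2 with a mean of 52.5 CPM and a range from 42.0 to 62.3 CPM. The next were Zeb2 at 1.08 CPM and Zeb1 at 0.855 CPM. Of 5 that passed the filter, 0 passed the adjusted threshold or had an unadjusted P under 0.05 in any of the 4 tests with edgeR. DESeq2 had 0 adjusted calls as well, and 1 gene at an unadjusted P under 0.05 in wounding over both genotypes and 1 in genotype, where it gave no adjusted p to 4 of the 5. With edgeR 6.61% and 8.26% of all genes met the unadjusted rule in these tests. In KO cells 3 of the 5 met the 2-fold rule, all higher when wounded, against 9.58% of all genes. In the same comparison 5 of 7 endothelial, 3 of 5 fibroblast, 3 of 6 wound keratinocyte, 2 of 4 melanocyte and 1 of 4 leukocyte markers met it, also higher when wounded. Of 5 granular markers 1 met it as higher and 1 as lower, and 1 of 6 hair follicle markers as lower. Of the basal and suprabasal markers 0 met it. The EMT factors that met it were Zeb1, Zeb2 and Twist1, named after their values were seen. They had 3, 0 and 0 counts in the KO unwounded library and at most 18 in a wounded KO library.

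The ATAC-seq lists give accessible regions per condition, called in each library without a control library, as intervals with a fold enrichment over local background and a q-value. They differ in length, with 10769 peaks in WT unwounded, 36872 in WT wounded, 29364 in KO unwounded and 22474 in KO wounded keratinocytes. Since each condition has 1 library, no test was possible and a missing peak may lie just under the caller's threshold. In and within 5 kb of the 3 genes there were 3 peaks in the WT unwounded list, 8 in WT wounded, 10 in KO unwounded and 5 in KO wounded. With the 10769 peaks of lowest q from each list these counts became 3, 2, 4 and 2, so they depend on how many peaks a list holds. The list with the most peaks also depends on the setting, with 7 in WT wounded and 6 in KO unwounded at a q of at most 0.01, and 6 in each at a fold enrichment of at least 4. Among 23334 listed genes with a position, 33.3%, 60.7%, 56.7% and 47.7% had a peak in or within 5 kb in the 4 lists in that order. Among the 13508 of them that passed the filter on low counts the shares were 50.7%, 84.6%, 81.0% and 68.8%. In the family 2, 3, 3 and 2 of the 3 genes had such a peak. The 26 peaks merged into 11 regions, of which 3 were in all 4 lists. Of the 8 WT wounded peaks, 3 overlapped a WT unwounded peak, 7 a KO unwounded peak and 4 a KO wounded peak. This order follows the lengths of the lists, and the shares of all WT wounded peaks that overlap each list were not counted.

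**Figure D3:**
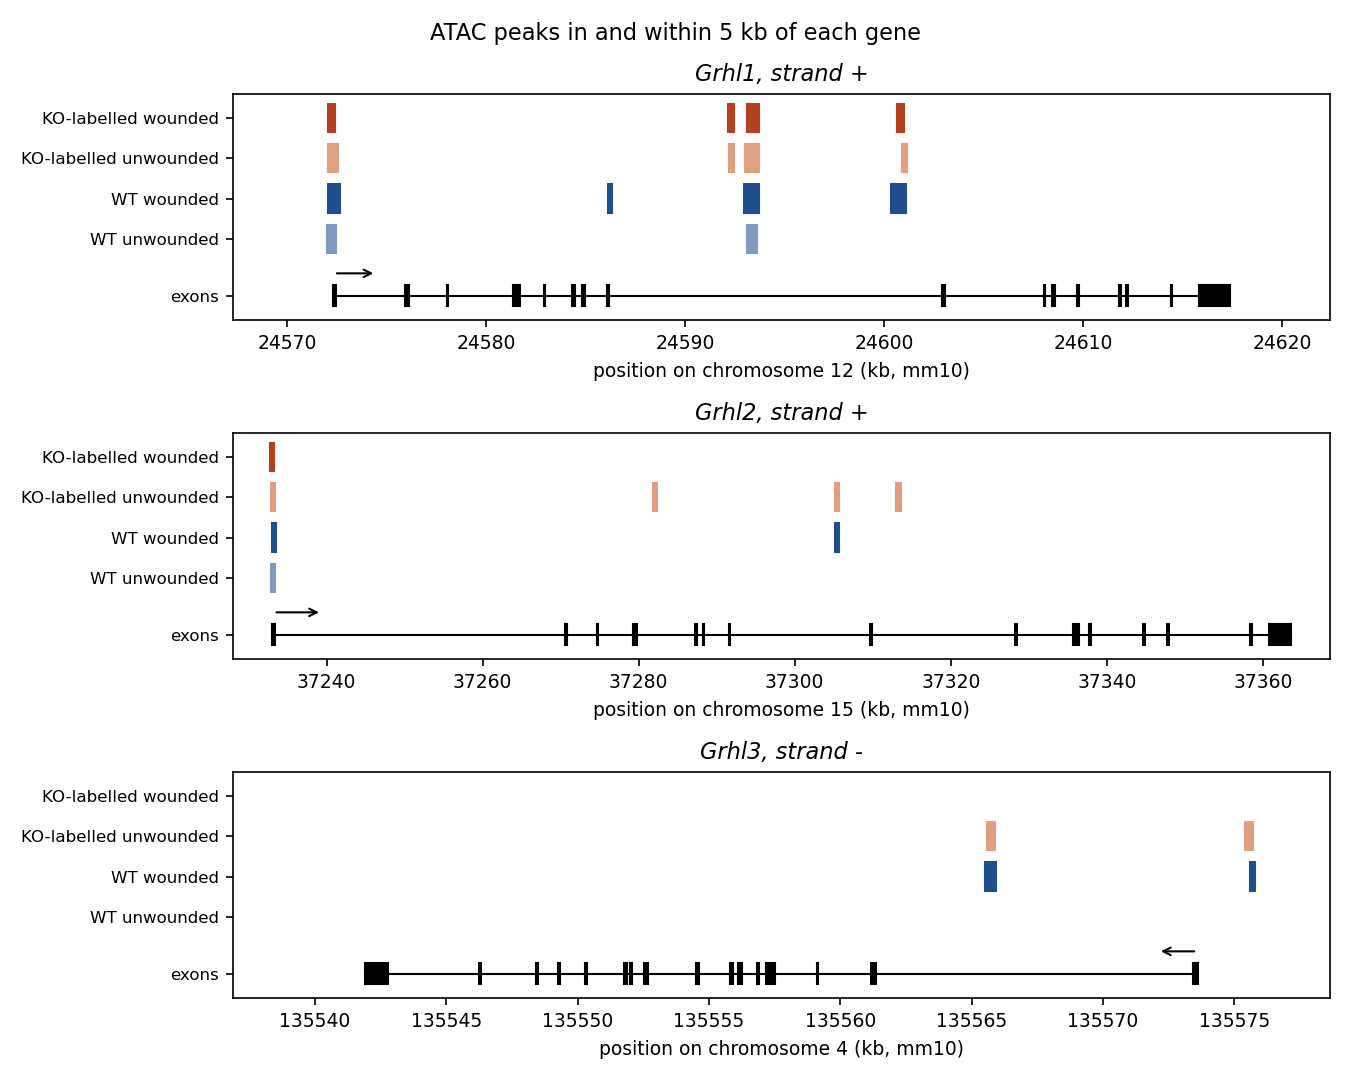
Maps of Grhl1, Grhl2 and Grhl3 with 5 kb on each side (horizontal axis, kb on the chromosome, mm10), with exons in black, an arrow at the gene start and ATAC peaks of the 4 lists as coloured boxes of a minimum width. Grhl1 and Grhl2 have a peak at the start in all 4 lists and Grhl3 has none there.

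Grhl1 lies on the plus strand at chr12:24572283-24617391 (mm10) and carried the most peaks, 14 over the 4 lists in 5 regions. The first region, chr12:24572018-24572633, covers the gene start and exon 1 and was in all 4 lists. Fold enrichment there was 4.01 in WT unwounded, 4.77 in WT wounded, 5.45 in KO unwounded and 5.44 in KO wounded. A region in intron 8, chr12:24592938-24593725, was also in all 4 lists, with a fold enrichment of 4.96, 5.49, 5.05 and 4.84 and a −log10 q of 5.86, 9.97, 7.44 and 4.87 in the same order. It had the highest −log10 q of the family in every list but KO wounded, where the start peak of Grhl1 had 5.69, and by fold enrichment the start peak was higher in both KO lists. In WT wounded cells its −log10 q exceeded that of 94.1% of the list.

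The other 3 regions of Grhl1 were not shared by all conditions. A peak of 185 bases at chr12:24586113-24586297, which covers the last 38 bases of exon 8 and the start of intron 8, was in the WT wounded list and in no other, with a fold enrichment of 4.45 and a −log10 q of 3.64. A region at chr12:24592137-24592441 in intron 8 was in both KO lists and in neither WT list. Its fold enrichment was 2.78 in KO unwounded and 3.58 in KO wounded, and its −log10 q was 1.34 and 2.36. It ends less than 1 kb before the intron 8 region found in all lists. The last region, chr12:24600339-24601124, also in intron 8, was in every list but WT unwounded, with a fold enrichment of 3.72 in WT wounded, 4.15 in KO unwounded and 3.70 in KO wounded. In each list these peaks had a lower fold enrichment than the start peak and the intron peak found in all lists.

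Grhl2 is the longest of the 3 genes, at chr15:37233036-37363569 on the plus strand, and had 8 peaks in 4 regions. The start of the gene, chr15:37232765-37233396, was accessible in all 4 lists. Fold enrichment was 3.34 in WT unwounded, 4.40 in WT wounded, 4.90 in KO unwounded and 3.54 in KO wounded. In WT unwounded and KO wounded cells these were weak peaks, with a −log10 q of 1.36 and 1.56, above 1.63% and 4.99% of their lists. A region in intron 7, chr15:37305149-37305621, was in the WT wounded and KO unwounded lists with a fold enrichment of 4.21 and 3.56. The KO unwounded list had 2 more, at chr15:37281787-37282058 in intron 4 and at chr15:37313035-37313229 in intron 8, with a fold enrichment of 4.62 and 4.38. The 3 predicted genes on the opposite strand, Gm16136, Gm16137 and Gm16138, lie within Grhl2, and the sources used here do not say whether counting used strand.

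Grhl3, on the minus strand at chr4:135541888-135573630, had the fewest peaks, 4 in 2 regions, in a gene of 31743 bases where Grhl2 has 130534. Within 1 kb of its start there was no peak in any of the 4 lists. In the lists in the order given above, 40.1%, 71.8%, 67.6% and 57.3% of the genes past the filter had a peak within 1 kb of a start, and 37.9% had one in all 4 lists, as Grhl1 and Grhl2 did. No list had one for 24% of these genes, and for 11.9% of the 1995 genes with a mean CPM of at least that of Grhl3. The peaks of Grhl3 lay at chr4:135565521-135565921 in intron 1, about 8 kb into the gene, and at chr4:135575386-135575768, about 2 kb upstream of the start. Each region was in the WT wounded and KO unwounded lists and in neither WT unwounded nor KO wounded. Fold enrichment in intron 1 was 3.42 in WT wounded and 3.47 in KO unwounded, and upstream it was 4.03 and 3.28. The −log10 q values were 1.93 and 1.90 in the intron and 2.92 and 1.37 upstream, so that at a q of at most 0.01 a single peak was left, the upstream one of WT wounded cells.

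The sequences before the starts of Grhl1 and Grhl3 are shown because a peak was called at the first in all lists and at the second in none. Of the family, 2 genes matched the RefSeq promoter table (GRCm38.p6), which has 300 bases for each start. Both are printed as the 250 bases before the start, 5′ to 3′ on the strand of the gene, with each CG in capitals. Grhl1 (chr12:24572037-24572286, plus strand) has 27 CG and 75.6% G and C. Its other start, with no peak within 1 kb in any list, has 0 CG and 52.0% G and C before it and is not printed. Grhl3 (chr4:135573633-135573882, minus strand) has 8 CG and 56.0% G and C. The median of 32851 such sequences was 6 CG and 52.4% G and C.
Grhl1, before the start: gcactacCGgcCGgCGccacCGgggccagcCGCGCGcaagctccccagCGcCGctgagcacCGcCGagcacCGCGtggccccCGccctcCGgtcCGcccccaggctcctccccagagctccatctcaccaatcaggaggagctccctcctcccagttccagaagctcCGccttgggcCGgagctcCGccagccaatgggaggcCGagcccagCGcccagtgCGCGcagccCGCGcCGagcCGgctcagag
Grhl3, before the start: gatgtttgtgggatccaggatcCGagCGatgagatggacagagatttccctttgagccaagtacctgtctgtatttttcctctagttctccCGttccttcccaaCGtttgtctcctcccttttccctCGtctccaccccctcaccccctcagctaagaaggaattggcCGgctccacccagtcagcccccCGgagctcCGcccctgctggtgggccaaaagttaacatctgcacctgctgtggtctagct

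Motifs were searched on both strands in 300 base windows at the middle of the 26 peaks and in the 300 base promoters. They were AACCGGTT, the core that Grainyhead factors bind, its loose form AACNNGTT, which includes the first, TGANTCA, the AP-1 motif, and TATAAA. None of the 26 windows held AACCGGTT or AACNNGTT. In the 4 whole lists 0.204% to 0.301% of the windows held AACCGGTT and 5.55% to 6.55% held AACNNGTT. TGANTCA was in 3 of the 26 windows, where 24.4% to 27.8% of the windows in the lists held it. These were the intron 8 peak of Grhl2 in KO unwounded cells and both upstream peaks of Grhl3. TATAAA was in 1 window, that of the upstream peak of Grhl3 in WT wounded cells, against 7.08% to 10.5% in the lists. The promoters of Grhl1, at 2 starts, and of Grhl3 held none of the 4 motifs, which 0.146%, 4.20%, 7.81% and 13.6% of all promoters held in the order above.

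Next, 3 regions are shown on the plus strand of mm10, of Grhl3 for its motifs and of Grhl1 for its shared and its WT wounded peaks. Those of Grhl2, of which the intron 8 region also holds TGANTCA, are not printed. The first is the middle 300 bases of the Grhl3 upstream region, chr4:135575427-135575726, with TGANTCA and 2 overlapping TATAAA matches, 1 on each strand, in capitals. The second is the last 300 bases of the intron 8 region of Grhl1 found in all lists, chr12:24593426-24593725, with TGANTCA in capitals. This match starts at 24593650, outside the windows at the middle of its peaks and past the WT unwounded peak, which ends at 24593611. The peaks of the other lists cover it. The last is the Grhl1 peak of the WT wounded list, chr12:24586113-24586297, with the bases of exon 8 in capitals.
Grhl3, upstream region: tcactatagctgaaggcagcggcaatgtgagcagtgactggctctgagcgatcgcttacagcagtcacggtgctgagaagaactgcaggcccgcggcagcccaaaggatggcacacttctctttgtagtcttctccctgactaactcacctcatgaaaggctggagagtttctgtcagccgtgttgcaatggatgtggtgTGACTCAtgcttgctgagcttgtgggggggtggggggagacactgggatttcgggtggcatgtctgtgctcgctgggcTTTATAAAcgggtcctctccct
Grhl1, intron 8 region: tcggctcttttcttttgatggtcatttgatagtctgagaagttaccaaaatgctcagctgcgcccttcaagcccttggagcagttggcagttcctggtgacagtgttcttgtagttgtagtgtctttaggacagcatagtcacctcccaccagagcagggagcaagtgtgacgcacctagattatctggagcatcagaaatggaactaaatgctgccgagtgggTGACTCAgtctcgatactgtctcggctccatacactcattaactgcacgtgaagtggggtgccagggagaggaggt
Grhl1, exon 8 and intron 8: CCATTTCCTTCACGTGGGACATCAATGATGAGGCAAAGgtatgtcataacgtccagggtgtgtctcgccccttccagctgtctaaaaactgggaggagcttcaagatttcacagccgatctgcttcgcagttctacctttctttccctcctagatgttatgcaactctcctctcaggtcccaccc

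The genes of the GRHL target list were also compared with the peak lists. All shares here are over the 26 that passed the filter, since Cldn3 and Cldn7 did not. In or within 5 kb a peak was found for 9 in WT unwounded, 24 in WT wounded, 22 in KO unwounded and 18 in KO wounded cells. These are 34.6%, 92.3%, 84.6% and 69.2%, against 50.7%, 84.6%, 81.0% and 68.8% of the genes past the filter. Within 1 kb of a start a peak was found for 2, 18, 17 and 10 of the 26 genes, or 7.69%, 69.2%, 65.4% and 38.5%, against 40.1%, 71.8%, 67.6% and 57.3% of the genes past the filter. The 2 genes with such a peak in WT unwounded cells were the splicing factor gene Esrp1 and the desmosomal gene Dsg1b. Cldn3, Cldn7 and Ovol1 had no peak in or within 5 kb in any list, and Cdh1 had 0, 3, 4 and 3 peaks in the 4 lists. All 3 CP2 relatives had a peak within 1 kb of a start in the WT wounded, KO unwounded and KO wounded lists, and 2 of them, Tfcp2 and Ubp1, in WT unwounded cells.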

How the data were processed

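RNA-seq of 7 libraries and ATAC-seq of 4 libraries were used. The deposited values of the RNA files are read counts per gene symbol. The authors' methods name FastQC, Kallisto and mm10, but the files end with 5 special entries in the style of htseq-count, and which step made the counts is not given. Neither library sizes nor tests include these entries. Reads not unique to a place were 3.46% to 4.74% of all and ambiguous reads 1.34% to 1.45%. Depth was 13497283 to 16807451 counts on genes per library. The authors called broad peaks with MACS2, without a control library. The deposited peak files give a fold enrichment, which is a ratio to local background. They also give deposited −log10 p-value and −log10 q-value columns. The deposited score is 10 times the −log10 q-value and was not used here.

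Counts were tested with the quasi-likelihood test of edgeR 4.0.16 in R 4.3.3, after filterByExpr and TMM scaling, with Benjamini-Hochberg adjustment over 14045 genes at a threshold of 0.05. The biological coefficient of variation was 31.6%. Log2 CPM used a prior count of 2. Shares of all genes at an unadjusted P under 0.05 are those of edgeR throughout, and those of DESeq2 were not counted. KO wounded against unwounded was described by a 2-fold rule. DESeq2 1.42.0, other scaling, other filters, a replicate block with either number for the KO unwounded library, subsets and leaving out each library were the alternatives. The scripts were tested on simulated data. Genes were matched to GENCODE vM21 on mm10, 23334 of those listed. Peaks were assigned within 5 kb of a gene and 1 kb of a start. Motifs were searched in 300 base windows with Python 3.11.15, pandas 2.3.3 and pysam 0.24.0. The members and lists were chosen with earlier results of these data known. The text names, by a rule, the 3 Grhl genes, the 3 members of a list with the highest mean CPM, members with an adjusted p under 0.05, members with an unadjusted P under 0.05 whose groups of 2 do not overlap, and the 3 genes most like each Grhl gene. Other genes were named after their values were seen.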

Additional observations from a re-analysis of the deposited data

Results flagged for a closer look

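Among the 121 genes of the lists and those most like a Grhl gene, the ratio of wounded to unwounded CPM differed in direction between WT libraries and libraries labelled KO for 4, every sample of a genotype moving one way and every sample of the other the opposite way. These are 3.51% of the 114 that passed the filter, against 10.6% of all 14045 genes that did, so the pattern is not more frequent here than among all genes. The difference was not tested, and the KO ratio rests on 1 unwounded library. Zfp750 had a ratio of 1.32 in WT and 0.797 in KO, with 449 CPM in the KO unwounded library and 357 and 358 CPM in the KO wounded ones. Dsc1 had a ratio of 0.636 in WT and 1.19 in KO, and Scrib 0.847 in WT and 1.08 in KO. Xist had a ratio of 8.11 in WT and 0.00136 in KO, where the KO unwounded library had 1101 CPM and no counts of Y-linked genes.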

How the results depend on the processing

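Of 144 alternative log2 fold changes of the Grhl genes, 133 kept direction and side of the threshold, 11 changed direction and 0 had an adjusted p under the threshold (lowest 0.366). The lowest unadjusted P was 0.0208, for Grhl1 by genotype without WT wounded replicate 1. The cause of the changes was not tested. The prior count and the scaling left the KO differences as they were, but Grhl1 turned from -0.11 to 0.04 without KO wounded replicate 1. With an overlap of at least 50% the WT wounded peaks shared with KO wounded went from 4 to 3, and the other 2 overlaps stayed. With 1 library per peak list and 2 or fewer RNA libraries per group, small changes cannot be seen.

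With a replicate block, the log2 fold change of Grhl3 was 0 in WT wounding and 0.04 by genotype. The KO unwounded library is number 2 by its title, used here, and number 1 by its file name. With number 1, an alternative chosen after seeing the data, the replicate block gave 0 in WT wounding and -0.09 by genotype for Grhl3, so the sign by genotype depends on that number. Whether libraries of the same number share an animal is not stated, and their differences correlated across genes at 0.154 between WT unwounded and WT wounded, -0.0109 between WT unwounded and KO wounded and -0.0386 between WT wounded and KO wounded. With the replicate block the numbers of genes past the threshold were 6 in WT wounding, 0 in KO against WT wounded, 4 in wounding over both genotypes and 0 by genotype, or 15 by genotype with number 1.

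Leaving out 1 library, the log2 fold change in WT wounding ranged from -0.24 to 0.14 for Grhl1 (0.06 without WT unwounded replicate 1, 0.14 without WT wounded replicate 2) and from -0.28 to 0.30 for Grhl3 (0.30 and 0.10 without the same libraries). In wounding over both genotypes it ranged from -0.17 to 0.02 for Grhl1 (0.02 without WT wounded replicate 2) and from -0.01 to 0.41 for Grhl3 (-0.01 without the KO unwounded library). By genotype it ranged from -0.17 to 0.17 for Grhl3 (0.09 without WT unwounded replicate 1, 0.17 without the KO unwounded library). Other ranges kept their direction: -0.09 to -0.01 for Grhl2 in WT wounding, -0.16 to -0.04 for Grhl2 in wounding over both genotypes, and by genotype 0.19 to 0.38 for Grhl1 and 0.06 to 0.17 for Grhl2.

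Per kilobase of coding sequence the means were 98.1, 85.1 and 55.4 CPM for Grhl1, Grhl2 and Grhl3, and per kilobase of the longest transcript Grhl2 had 32.3. The peaks at the 3 genes became 7 in WT wounded at a q of at most 0.01, 6 at a fold enrichment of at least 4 and 2 with the same number of peaks from each list. In KO unwounded they became 6, 6 and 4 under these settings, so which list had the most depends on the setting. In KO wounded they became 3, 2 and 2.

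Past the adjusted threshold there were 4 genes in WT wounding (24 with DESeq2, 96 without a filter, 0 with at least 10 counts in every library, 0 in a fit of 4 libraries, 0 to 29 leaving out 1 library). KO against WT wounded had 0 (3 with DESeq2, 51 without a filter, 0 to 21 leaving out 1). Wounding over both genotypes had 5 (126, 305, 2 with at least 10 counts, 0 to 119 leaving out 1). Genotype had 0 (90, 323, 0 to 39 leaving out 1). The 2-fold rule gave 1346 genes, and 2567 and 2732 when 1 wounded library was left out.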

Other observations

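Markers of keratinocyte layers were counted with the same tests. In WT wounding 4 of 6 suprabasal genes were lower at an unadjusted P under 0.05 (median log2 fold change -0.45) and 4 of 6 wound keratinocyte genes were higher (0.92), against 4.84% of all genes, and DESeq2 had 4 and 2 at the same rule. In KO wounded against WT wounded libraries 5 of 6 suprabasal genes were higher (0.59), and 2 of 6 wound keratinocyte genes, Krt17 and Itga5, were lower, against 4.04% of all genes, and DESeq2 had 5 and 2. With edgeR 0 of these passed the adjusted threshold. DESeq2 called 1 of them, Krt10, between KO and WT wounded libraries, where it called 3 genes in all. Suprabasal genes summed to 6379 and 7051 CPM in WT unwounded, 3726 and 5456 CPM in WT wounded, 9576 CPM in KO unwounded and 6835 and 8465 CPM in KO wounded libraries.

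In WT wounding 4 of 6 hair follicle genes were lower at an unadjusted P under 0.05 with edgeR, against 4.84% of all genes. By the same rule 5 of 7 endothelial, 1 of 5 fibroblast, 1 of 4 leukocyte and 2 of 4 melanocyte genes were higher. DESeq2 had 4, 6, 1, 1 and 2 genes of these lists in the order named. Past the adjusted threshold there were 0 by edgeR and 1, Flt1, by DESeq2, which called 24 genes in all. The basal and granular lists had 0 at either rule with both tools. Among the genes of sex, DESeq2 called 1, Xist. It passed with edgeR too (adjusted p 0.0101), at 0.258 and 0.178 CPM unwounded and 1.92 and 1.62 CPM wounded. This rests on 4 and 3 counts against 32 and 25, and 0 genes passed in a fit of the 4 compared libraries or without WT unwounded replicate 2, where the call for Xist is lost.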
